A study of Mus musculus with 7 samples.

Results

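The 10 genes described here encode enzymes of glycolysis and of lactate and pyruvate conversion: the testis forms Gapdhs, Ldhc, Pgk2, Eno4, Aldoart1 and Pdha2, and Hk1, Ldha, Ldhb and Pgam2, which other tissues also use. They were chosen by name, with earlier results of these data known. Each was read by 1 probe set that the platform annotation gives to that gene alone. Thus 10 of 22154 genes with a probe set of their own are covered. A further 2 probe sets name a member together with another gene and were not used. Sperm RNA from mice was hybridised to 7 expression arrays, each a pool of males. The C57BL/6 array held 5 males. TG3 and nonTG3 had 3 arrays each, with 4 males per array.

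TG3 males carried a KDM1A transgene, which encodes a histone lysine demethylase, and nonTG3 males were their littermates that lacked it, both in generation 3. The transgene had been injected into C57BL/6 zygotes and was passed on by heterozygous males mated to C57BL/6 females, so all groups share the C57BL/6 background. The sources used here do not give the promoter that drives the transgene, the ages of the males, or whether a male or founder contributed to more than 1 pool. The p-values therefore set differences against the spread among these pools alone. With 1 C57BL/6 array, that spread comes from TG3 and nonTG3, and how far C57BL/6 pools spread is not known. TG3 and nonTG3 together are called the line below. Values are log2 intensities after RMA, a procedure that corrects background, scales arrays to each other and joins a probe set's probes into 1 value. One log2 unit is a doubling of intensity. Readings of different probe sets were not set against each other, since probes differ in brightness.

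Sperm draw much of the ATP for swimming from glycolysis in the tail, where several of these enzymes are bound to the fibrous sheath, a sleeve around the axoneme. Germ cells replace many somatic glycolytic enzymes during meiosis and spermatid development with testis forms, some of them encoded by retrogenes, which are copies made from a messenger RNA. Lactate from Sertoli cells feeds spermatocytes and spermatids, and lactate dehydrogenase joins lactate to pyruvate and so sets the balance of NAD and NADH. Mature sperm carry out little transcription, so their RNA is largely left from earlier stages. Mouse males that lack GAPDHS or LDHC are infertile, with sperm that swim poorly.

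The windows around the start sites of 4 members are shown. Ldhc was called lower in the line, and Ldha is its somatic relative. Pgk2 and Gapdhs are testis forms whose differences did not pass the test. All 4 differences were negative, and whether they differ between these genes was not tested. The sequences are from RefSeq on build GRCm38.p6 and run 5′ to 3′ from 250 bases before the start site to 50 bases after it. Ldhc lies at chr7:46861013-46861312 and Ldha at chr7:46845554-46845853, both on the plus strand. Pgk2 lies at chr17:40208560-40208859 and Gapdhs at chr7:30743632-30743931, both on the minus strand. For Ldhc, Ldha and Gapdhs the table has 2 windows each, and the one listed first is shown. Capitals mark every match on either strand to 5 motifs: the cyclic AMP response element TGACGTCA, its core TGACG, the GC box GGGCGG, the CCAAT box and the TATA box TATAAA. The core lies inside the full element, so each full element also counts as 2 cores.
Ldhc: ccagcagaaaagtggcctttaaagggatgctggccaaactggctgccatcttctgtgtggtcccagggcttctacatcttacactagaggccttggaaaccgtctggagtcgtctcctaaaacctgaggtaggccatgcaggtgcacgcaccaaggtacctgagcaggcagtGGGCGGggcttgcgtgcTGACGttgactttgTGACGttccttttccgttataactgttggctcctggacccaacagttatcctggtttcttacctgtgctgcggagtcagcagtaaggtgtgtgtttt
Ldha: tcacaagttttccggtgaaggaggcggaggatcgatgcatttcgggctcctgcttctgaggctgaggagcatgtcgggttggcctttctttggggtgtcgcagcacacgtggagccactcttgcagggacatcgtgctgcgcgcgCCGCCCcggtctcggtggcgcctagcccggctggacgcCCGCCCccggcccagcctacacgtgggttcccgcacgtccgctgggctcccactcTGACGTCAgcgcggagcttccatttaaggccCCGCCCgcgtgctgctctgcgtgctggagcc
Pgk2: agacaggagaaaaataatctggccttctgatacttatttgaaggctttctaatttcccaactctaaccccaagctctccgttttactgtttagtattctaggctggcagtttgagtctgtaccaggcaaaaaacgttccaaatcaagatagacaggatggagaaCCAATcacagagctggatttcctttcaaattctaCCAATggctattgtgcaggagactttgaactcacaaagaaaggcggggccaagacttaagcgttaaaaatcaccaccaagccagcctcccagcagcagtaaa
Gapdhs: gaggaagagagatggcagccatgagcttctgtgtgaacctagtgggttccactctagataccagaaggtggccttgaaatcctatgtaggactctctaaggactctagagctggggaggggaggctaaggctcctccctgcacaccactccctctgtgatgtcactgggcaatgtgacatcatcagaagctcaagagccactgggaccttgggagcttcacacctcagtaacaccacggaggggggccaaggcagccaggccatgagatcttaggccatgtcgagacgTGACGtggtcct
Of the 10 members 9 had a window in the table. The full cyclic AMP response element was found in 1 of the 9, Ldha, at bases -12 to -5 from the start site, and in 1.79% of all 32851 windows. Its core was found in 3 of the 9 and in 20.8% of all windows. The Ldhc window holds the core at bases -61 to -57 and -47 to -43, with a GC box at -78 to -73, and the Gapdhs window holds it at bases 39 to 43. GC boxes were in Ldhc and in Ldha, of the 9, and in 35.7% of all windows. CCAAT boxes were in Pgk2, Ldhb and Pgam2, at -86 to -82 and -52 to -48 in Pgk2, and in 37.4% of all windows. The TATA box letters were in Pdha2 alone among the 9, and in 13.6% of all windows. These matches describe the letters of the windows and are not sites of binding.

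Before the enzymes are compared, the arrays themselves need a description. Array medians lay between 3.52 and 3.61. The 9 measured markers of late spermatids, among them protamine and tail genes, averaged 10.64 on the C57BL/6 array and 9.70 to 9.99 in the line. The 10 mitochondrially encoded genes averaged 11.24 on C57BL/6 and 9.98 to 11.55 on 4 arrays of the line, but 8.80 on TG3 replicate 1 and 8.91 on nonTG3 replicate 3. On the same arrays 10 markers of muscle, fibroblasts and vessels averaged 5.71 and 5.40, against 4.46 to 4.89 on the other 4 and 4.56 on C57BL/6.

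The comparison of the line with C57BL/6 asks how sperm from the transgenic pedigree, with or without the transgene, differs from that of outside males. Ldhc, the lactate dehydrogenase of germ cells and sperm, was the 1 member that passed the test. Ldhc read 8.76 in C57BL/6. It read 6.40, 6.30 and 5.86 in TG3 and 6.30, 6.22 and 6.30 in nonTG3. All 6 arrays of the line lay more than 2 log2 units under C57BL/6, and carriers and littermates lay in the same range. RMA gave TG3 replicate 2 and nonTG3 replicates 1 and 3 exactly the same value. Ldhc fell by 2.53 on the log2 scale (95% interval -3.04 to -2.01), which is 5.76-fold, with a limma adjusted p of 0.00532. Of all 23493 probe sets tested 2.85% were called lower in the line, 0.17% higher and 3.02% either way. In the fits without 1 array the 40 higher calls became 5 to 18 and the 670 lower calls 343 to 479. The C57BL/6 array has no replicates, so the spread behind each such test comes from the line alone. Each fit without 1 array of the line also called Ldhc, with limma adjusted p of 0.00894 to 0.0296. Without both arrays on which mitochondrially encoded genes were lowest (replicate 1 of TG3 and replicate 3 of nonTG3), the difference was -2.59 at a limma adjusted p of 0.0931, with 2 residual degrees of freedom and 0 calls among all probe sets.

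Some markers of other cells also differed between C57BL/6 and the line. Of 7 measured spermatocyte markers 2 were called lower, and the list averaged 4.87 in C57BL/6 and 3.61 to 4.33 in the line. Differences were negative for 5 of the 7 and positive for 2, Dmc1 at 0.095 and Msh4 at 0.75, neither called. Msh4 read 3.20 in C57BL/6 and 3.52 to 4.58 in the line. Of 6 measured Leydig cell markers 4 were called lower, and the list averaged 4.09 against 2.53 to 2.74. Cyp11a1 was not among the 4. Another probe set of Cyp11a1, of lower mean and not counted, was lower in the line, at 4.74 against 2.48 to 2.84 (limma adjusted p = 0.00552). Of 8 Sertoli cell markers 1 was called lower, Cst9, which read 7.66 against 2.32 to 3.30. The differences of the other markers were mostly positive: 5 of the 8 were above 0, and the list median was 0.10. C57BL/6 lay below all 6 arrays of the line for 4 of the 8, against 18.2% of all probe sets. These were Wt1, Amh, Gata4 and Dhh, with differences of 0.058 to 0.54, none of them called. Exact ties left Amh with 2 distinct values in the line and Gata4 with 3. Dhh read 2.59 in C57BL/6 and 3.00 to 3.38 in the line, also below the lowest array median, 3.52. Of the 9 spermatid markers 2 were called lower, Prm1 and Tnp1. Of 9 epididymis markers 1, Lcn8, was called higher, and of 10 leukocyte and 10 muscle, fibroblast and vessel markers 0 were called. Differences were positive for 9 of 9 epididymis, 9 of 10 leukocyte and 9 of 10 muscle, fibroblast and vessel markers. Their list medians were 0.23, 0.14 and 0.52, against 0.037 for all probe sets. Lcn8 read 2.45 in C57BL/6 and 3.07 to 3.25 in the line, below the lowest array median of 3.52. Whether such readings lie above background was not measured. RMA readings have no zero, so no marker could be at 0. The part of these cells in the difference of Ldhc was not tested, and in pooled sperm RNA fewer cells of a type cannot be told apart from less RNA per cell.

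**Figure D1:**
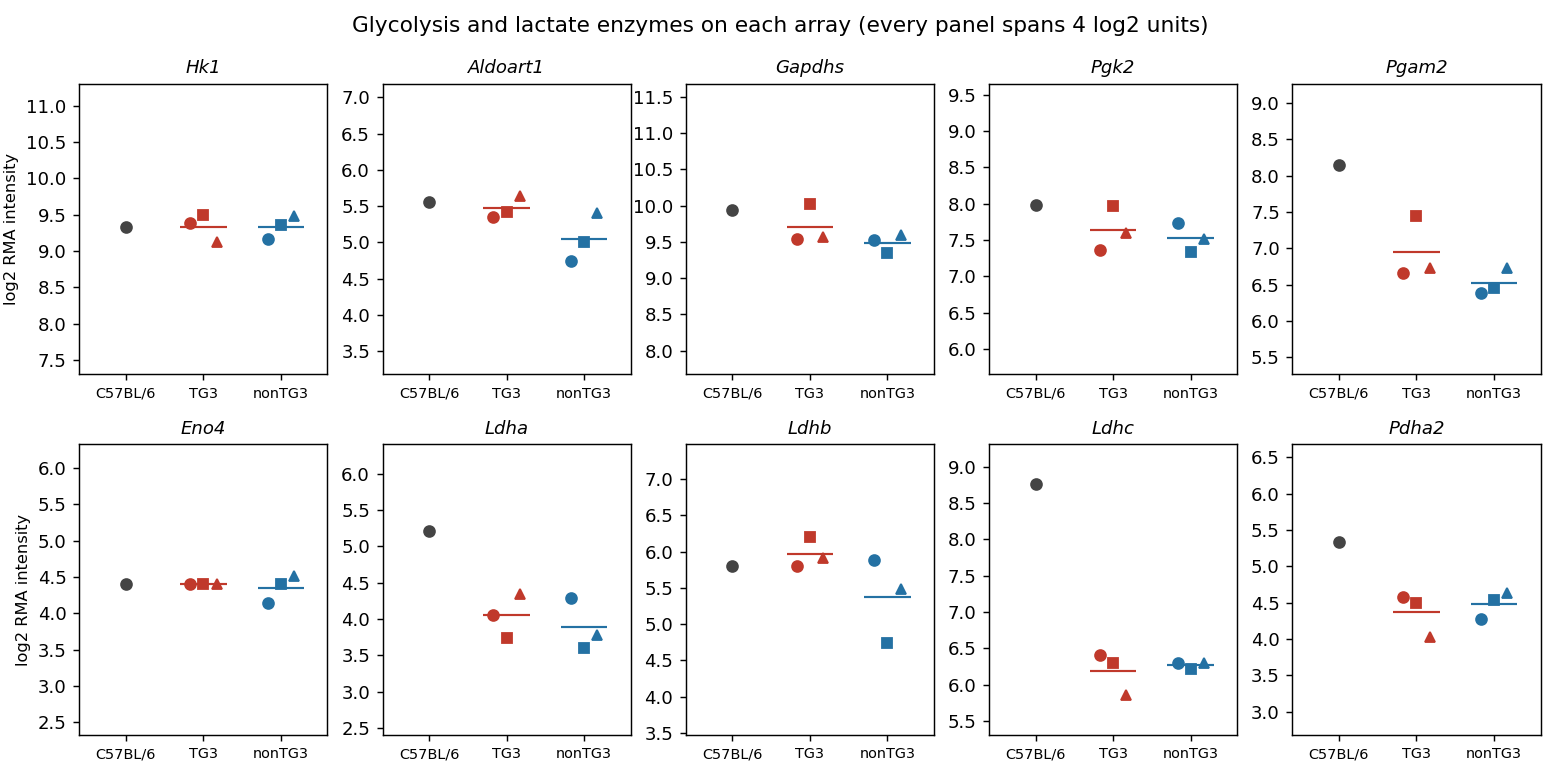
Log2 RMA intensity of the 10 enzymes (vertical axes, each spanning 4 log2 units) on the C57BL/6 array and the TG3 and nonTG3 arrays (circle, square and triangle for replicates 1, 2 and 3; lines are group means). Ldhc reads 8.76 in C57BL/6 and 5.86 to 6.40 in the line, while the C57BL/6 values of Hk1 and Eno4 lie within the range of the line.

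The somatic lactate dehydrogenases gave other values. Ldha, the muscle-type subunit, read 5.21 in C57BL/6. It read 4.06, 3.73 and 4.35 in TG3 and 4.29, 3.60 and 3.78 in nonTG3. C57BL/6 thus lay above all 6 arrays of the line, whose groups overlapped. The difference of -1.24 log2 units (95% interval -2.03 to -0.46) did not pass, at a limma adjusted p of 0.152. Ldhb, the heart-type subunit, read 5.80 in C57BL/6, 5.80, 6.21 and 5.91 in TG3 and 5.89, 4.74 and 5.48 in nonTG3. The C57BL/6 value fell inside the range of the line, and the difference was -0.13 (95% interval -1.13 to 0.88; limma adjusted p = 1). Its sign turned without nonTG3 replicate 2, the lowest array, to 0.031, and with a repeated quantile normalization, to 0.012.

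The enzymes of the upper and middle pathway came next. Hexokinase 1, which phosphorylates glucose on entry, read 9.34 in C57BL/6, 9.39, 9.49 and 9.12 in TG3 and 9.16, 9.36 and 9.48 in nonTG3. The 3 groups overlapped, and the difference between line and C57BL/6 was -0.0033 log2 units (95% interval -0.46 to 0.46), whose sign turned with array weights and without TG3 replicate 3 or nonTG3 replicate 1. Hk1 has germ cell transcripts of its own with other first exons, and 1 probe set cannot separate them from the somatic ones. Aldoart1, a testis retrogene of aldolase A, read 5.56 in C57BL/6, 5.35, 5.42 and 5.64 in TG3 and 4.74, 5.00 and 5.41 in nonTG3. The difference of -0.30 (95% interval -0.93 to 0.32) had a limma adjusted p of 0.888, and it was -0.18 with a repeated quantile normalization. A retrogene resembles its parent closely, and how far this probe set also reads Aldoa was not tested.

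Gapdhs, the sperm glyceraldehyde-3-phosphate dehydrogenase, read 9.94 in C57BL/6. It read 9.53, 10.02 and 9.57 in TG3 and 9.53, 9.34 and 9.60 in nonTG3. TG3 replicate 2 lay above C57BL/6 and the other 5 arrays below it. The difference was -0.34 (95% interval -0.86 to 0.19; limma adjusted p = 0.716). Pgk2, the phosphoglycerate kinase of late germ cells and a retrogene of X-linked Pgk1, read 7.98 in C57BL/6, 7.37, 7.96 and 7.60 in TG3 and 7.74, 7.33 and 7.51 in nonTG3. C57BL/6 lay above all 6, by a small margin over TG3 replicate 2, and the difference was -0.39 (95% interval -1.01 to 0.23; limma adjusted p = 0.731). With a repeated quantile normalization it was -0.19 (limma adjusted p = 1). The interval of Ldhc, -3.04 to -2.01, lay wholly below those of Gapdhs and Pgk2. These intervals share the single C57BL/6 array and hold no spread of C57BL/6 pools. Whether the genes differ from each other was not tested.

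The last steps before pyruvate differed in size. Pgam2, the muscle-type phosphoglycerate mutase that is also made in the testis, read 8.15 in C57BL/6. It read 6.66, 7.45 and 6.72 in TG3 and 6.39, 6.45 and 6.72 in nonTG3. C57BL/6 lay above all 6 arrays, with TG3 replicate 2 the nearest. The difference was -1.41 (95% interval -2.20 to -0.63) at a limma adjusted p of 0.107, and it passed only in the fit without TG3 replicate 2, at -1.54 and a limma adjusted p of 0.0349. Eno4, a testis enolase of the sperm tail, read 4.41 in C57BL/6 and 4.41 on every TG3 array, exactly tied, and 4.14, 4.41 and 4.51 in nonTG3. Its difference of -0.027 (95% interval -0.40 to 0.35) became 0.027 without nonTG3 replicate 1, and such ties limit what this probe set can show. Pdha2, the testis form of the pyruvate dehydrogenase subunit that leads pyruvate into mitochondrial oxidation, read 5.33 in C57BL/6, 4.58, 4.49 and 4.03 in TG3 and 4.28, 4.54 and 4.64 in nonTG3. C57BL/6 lay above all 6, and the difference of -0.90 (95% interval -1.50 to -0.30) had a limma adjusted p of 0.171.

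Over the 10 members, C57BL/6 lay above all 6 arrays of the line for 5, Ldhc, Pgk2, Ldha, Pgam2 and Pdha2, and below all 6 for 0. Over all tested probe sets these shares were 14.3% and 18.2%. The median difference between line and C57BL/6 was -0.37 log2 units for the members and 0.037 for all probe sets. Differences were negative for 10 of 10 members and for 38.9% of all probe sets, although those of Hk1, Ldhb and Eno4 turned sign under some settings. The spermatid markers gave similar values: 9 of 9 differences were negative, their median was -0.42, and C57BL/6 lay above all 6 arrays of the line for 6 of 9. Whether the members differ from them was not tested.

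**Figure D2:**
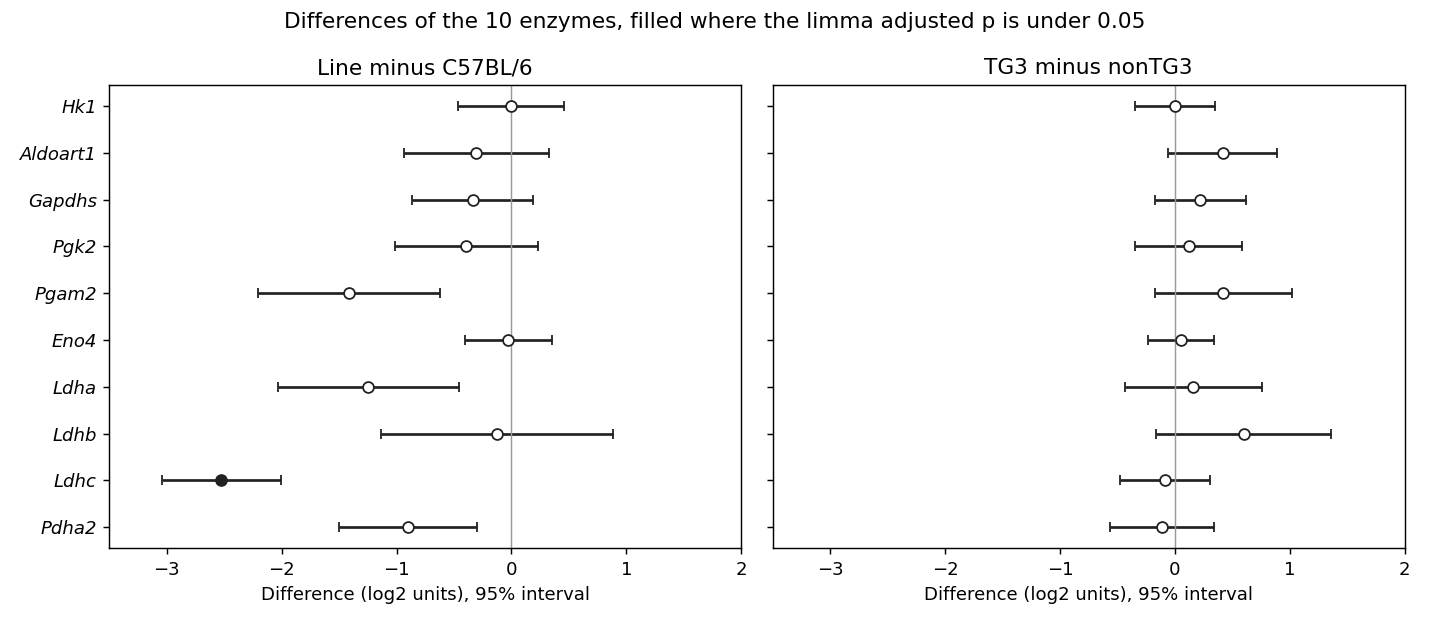
Difference in log2 intensity of the 10 enzymes between the line and C57BL/6 (left) and between TG3 and nonTG3 (right), as points with 95% intervals from limma, filled where the adjusted p is under 0.05. Ldhc, at -2.53 on the left, is the 1 filled point, and every interval on the right spans 0.

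Ratios of a testis form, or of muscle-type Pgam2, to the somatic counterpart show whether both readings changed alike. They were taken within each array and set to 0 in C57BL/6. For Ldhc over Ldha the mean shift of the line was -1.28 ± 0.43 log2 units (SD, n = 6), with arrays between -2.04 and -0.93. Ldha read 3.60 to 4.35 in the line, its lowest readings near the array medians of 3.52 to 3.61. Whether such readings lie above background was not measured, so this ratio cannot show that Ldhc RNA fell more than Ldha RNA. For Pgam2 over Pgam1, the widely used phosphoglycerate mutase, the shift was -1.51 ± 0.46 (SD, n = 6). Pgam1 has another probe set of lower mean, not used in the ratio, with a difference between line and C57BL/6 of -0.030. For Pgk2 over Pgk1 the shift was -0.77 ± 0.23 (SD, n = 6), with all arrays between -1.08 and -0.45. Pgk2 is a retrogene of Pgk1, and how far either probe set also reads the other gene was not tested. For Pdha2 over Pdha1 it was -0.92 ± 0.67 (SD, n = 6), and for Gapdhs over Gapdh -0.60 ± 0.37 (SD, n = 6). Gapdh has other probe sets of lower mean, with differences between line and C57BL/6 of 0.35 and -0.19. The latter was dim, at 2.81 in C57BL/6 and 2.20 to 2.87 in the line. Ratios with these probe sets were not taken. With the probe sets used, every array of the line lay under C57BL/6 in all 5 ratios. The nearest was nonTG3 replicate 3 for Gapdhs over Gapdh at -0.065. These shifts have 1 C57BL/6 array behind them and no test. A ratio shows unequal change of the paired readings and not which of the pair changed. Of the somatic forms, Gapdh, Pgk1, Pgam1 and Pdha1 had differences between line and C57BL/6 of 0.26, 0.38, 0.099 and 0.017, at limma adjusted p of 0.983 to 1. Eno1 and Aldoa, the counterparts of Eno4 and Aldoart1, were not analysed here for want of a probe set given to them alone.

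**Figure D3:**
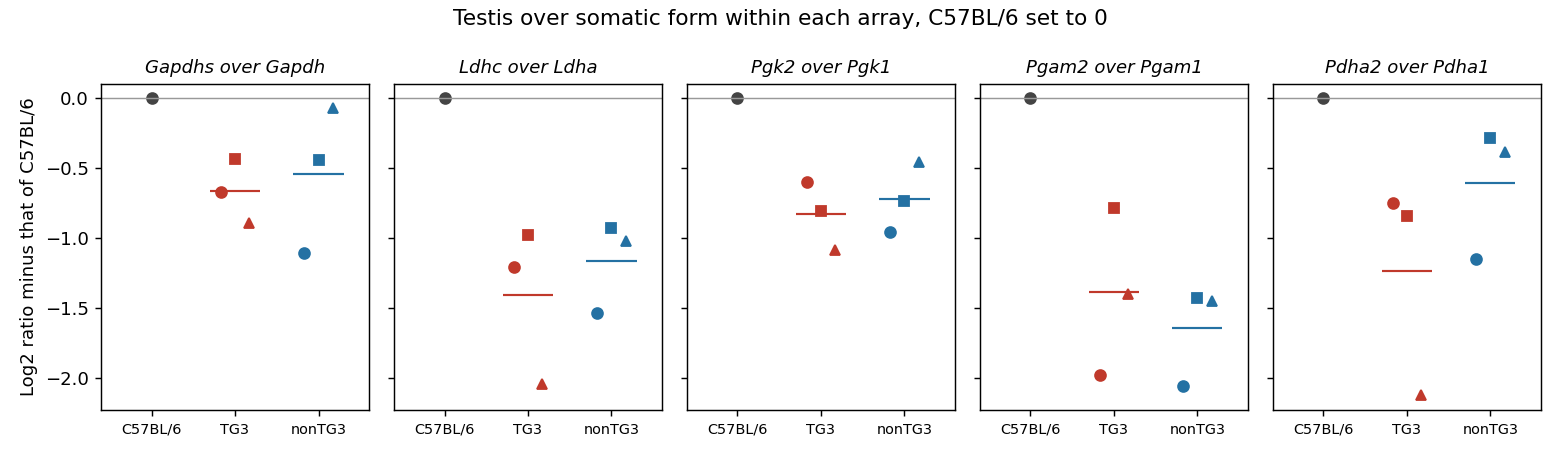
Log2 ratio of a testis form, or of muscle-type Pgam2, to its somatic counterpart within each array, for 5 enzyme steps. That of the C57BL/6 array is subtracted (vertical axis, log2 units). Symbols mark replicates 1, 2 and 3 and lines are group means. All arrays of the line lie below 0, between -2.12 and -0.065.

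Genes whose pattern over the 7 arrays was nearest to that of Ldhc were sought among 19214 genes by the root mean square difference of values centred on each gene's mean. The nearest was Lypd4, at 0.051 log2 units, which read 7.58 in C57BL/6 and 4.76 to 5.26 in the line. Plac8l1 followed at 0.088, with 6.65 and 3.80 to 4.13. Smc1b, a cohesin subunit of meiosis, was the third at 0.11, with 6.18 and 3.57 to 4.01. The arrays share pools across genes, and the distance between C57BL/6 and the line weighs most in this measure.

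Other genes of the pathway were counted over 4 lists with 75 measured genes of 87. These lists, like the members, were chosen with earlier results of these data known. Of the 75, 11 fell in the line and 0 rose, where 2.85% of all probe sets fell. The 11 were 3 of 18 other glycolysis enzymes, 2 of 22 genes of lactate and pyruvate handling, 3 of 16 of sugar uptake and entry and 3 of 19 of glycolytic control and NADH shuttles. The 4 list medians lay between -0.023 and 0.049, near the 0.037 of all probe sets. C57BL/6 lay above all 6 arrays of the line for 18 of the 75 and below all 6 for 11. Over all tested probe sets these shares were 14.3% and 18.2%.

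Uptake of sugars and lactate held 3 of them. Slc16a7, the monocarboxylate transporter MCT2 that carries lactate and pyruvate in sperm, read 6.24 in C57BL/6, 4.57, 4.55 and 4.26 in TG3 and 4.53, 4.55 and 4.59 in nonTG3. It fell 3.33-fold (limma adjusted p = 0.00535). Slc2a3, a glucose transporter of sperm, fell from 6.38 to 5.22 ± 0.16 (SD, n = 6; limma adjusted p = 0.0378). Slc2a5, the fructose transporter, fell from 6.39 to 5.09 ± 0.13 (SD, n = 6; limma adjusted p = 0.0158). Carriers and littermates overlapped for all 3. Bsg, the chaperone of monocarboxylate transporters, read 6.34 in C57BL/6 and 5.84 on average in the line (limma adjusted p = 0.506).

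Gk2, Fbp1, Bpgm and Pfkp come from 3 of the lists. Gk2, a testis glycerol kinase of the sugar uptake and entry list, had the largest difference of the 75 genes. It read 7.39 in C57BL/6, 3.91, 4.69 and 4.39 in TG3 and 4.39, 3.70 and 4.39 in nonTG3. It fell 8.88-fold (limma adjusted p = 0.0143), and the 2 groups of the line overlapped. Fbp1, which reverses the phosphofructokinase step, fell from 7.55 to 5.32 ± 0.27 (SD, n = 6; limma adjusted p = 0.0186). Bpgm, which makes 2,3-bisphosphoglycerate in red cells, fell from 5.20 to 3.74 ± 0.27 (SD, n = 6; limma adjusted p = 0.0148). Pfkp, a phosphofructokinase, fell from 4.77 to 3.56 ± 0.13 (SD, n = 6; limma adjusted p = 0.0175). Pfkp was exactly tied on 4 arrays of the line. It read 3.30 to 3.62 in the line, near the array medians of 3.52 to 3.61, and whether such readings lie above background was not measured.

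Relatives of the members were also among the 11. Aldoart2, another testis retrogene of aldolase A, fell from 5.75 to 4.30 ± 0.21 (SD, n = 6; limma adjusted p = 0.0377). Ldhal6b, a testis relative of lactate dehydrogenase, fell from 7.55 to 5.74 ± 0.31 (SD, n = 6; limma adjusted p = 0.0318). Mdh1b, a relative of the malate dehydrogenase of the NADH shuttle, read 4.79 in C57BL/6 and 2.02 to 2.63 in the line (limma adjusted p = 0.00613). Got1l1, a relative of the aspartate aminotransferase of that shuttle, read 4.29 and 3.19 to 3.42 (limma adjusted p = 0.0174). Both lay below the lowest array median of 3.52 in the line, and whether such readings lie above background was not measured, so no fold is given for them.

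Among these 11 and Ldhc, 3 kept their call in all 6 fits without 1 array: Ldhc, Slc16a7 and Mdh1b. Gk2 lost it without TG3 replicate 3 (limma adjusted p = 0.0553) and Bpgm without TG3 replicate 2 (limma adjusted p = 0.0555). Slc2a3 lost it in all 6 fits and with a repeated quantile normalization, with limma adjusted p up to 0.114 without nonTG3 replicate 2. Aldoart2 and Ldhal6b lost it in 5 fits, Pfkp and Fbp1 in 4, and Slc2a5 and Got1l1 in 3. The count of 11 was 6 without TG3 replicate 1, TG3 replicate 3, nonTG3 replicate 2 or nonTG3 replicate 3, and 5 without TG3 replicate 2 or nonTG3 replicate 1. It was 0 without both arrays of low mitochondrial RNA.

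**Figure D4:**
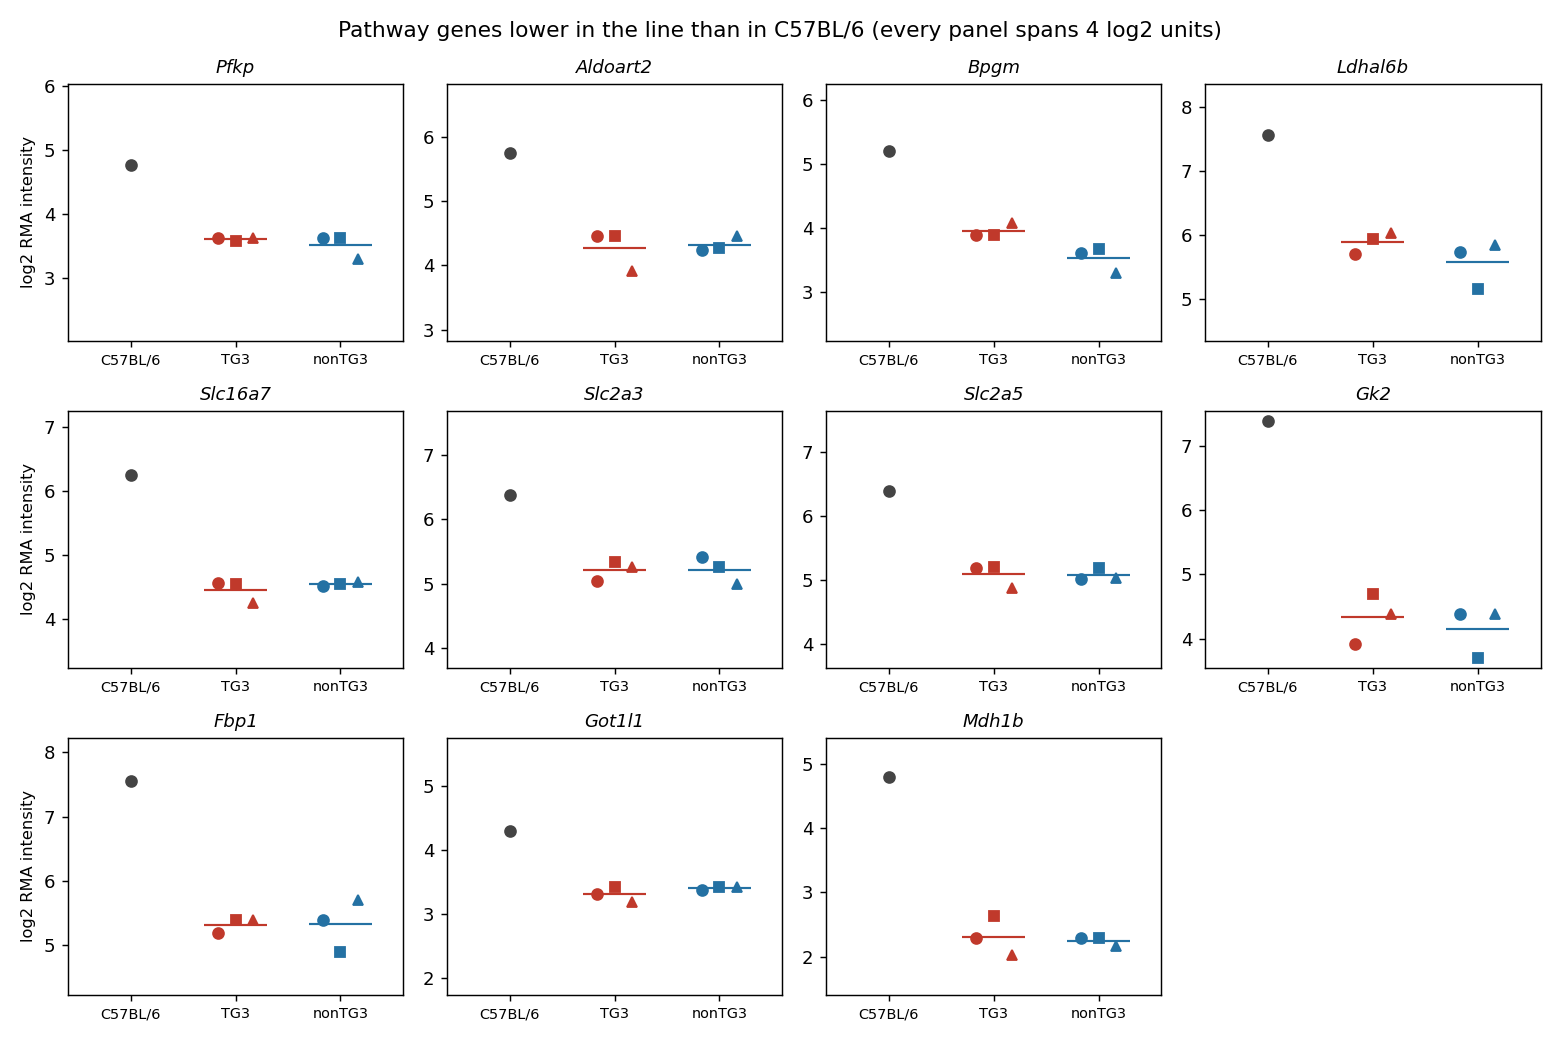
Log2 RMA intensity (vertical axes, each spanning 4 log2 units) of the 11 other pathway genes called lower in the line, on the C57BL/6, TG3 and nonTG3 arrays (circle, square and triangle for replicates 1, 2 and 3; lines are group means). Gk2 reads 7.39 in C57BL/6 and 3.70 to 4.69 in the line, and TG3 and nonTG3 lie apart for Bpgm alone.

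The comparison of TG3 with nonTG3 asks how the transgene itself bears on sperm RNA among littermates. No member passed it: limma called 0 of 10 members and 0% of all probe sets, and 0 of 10 had an unadjusted p under 0.05, against 559 of all 23493. Among the members TG3 and nonTG3 overlapped for 10 of 10, where 4.12% of all probe sets had no overlap (2.47% with TG3 above and 1.65% with TG3 below). Ldhb had the largest difference, with means ± SD over 3 arrays of 5.97 ± 0.21 in carriers and 5.37 ± 0.58 in littermates, a difference of 0.60 (95% interval -0.16 to 1.36; limma adjusted p = 0.923). It was 0.29 without nonTG3 replicate 2, the lowest array. Pgam2 followed with 6.94 ± 0.44 and 6.52 ± 0.18, and this difference of 0.42 became 0.17 without TG3 replicate 2. Aldoart1 read 5.47 ± 0.15 and 5.05 ± 0.34, a difference of 0.42 (95% interval -0.057 to 0.89; limma adjusted p = 0.923), which became 0.26 when nonTG3 replicate 1 was left out and 0.60 when nonTG3 replicate 3 was.

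The other differences between carriers and littermates were smaller. Gapdhs differed by 0.22 (95% interval -0.18 to 0.62), Ldha by 0.16 (95% interval -0.44 to 0.76), Pgk2 by 0.12 (95% interval -0.35 to 0.59) and Eno4 by 0.054 (95% interval -0.23 to 0.34). Without 1 array the difference of Gapdhs was as low as 0.066 (TG3 replicate 2 left out). That of Ldha ran from 0.0098 (TG3 replicate 3 left out) to 0.36 (nonTG3 replicate 1 left out). Ldhc differed by -0.086 (95% interval -0.48 to 0.30), Pdha2 by -0.11 (95% interval -0.57 to 0.34) and Hk1 by -0.0016 (95% interval -0.35 to 0.35). For Ldhc, differences between carriers and littermates of more than 0.48 log2 units in either direction lie outside the interval. A two-sided exact permutation test, which cannot go below p = 0.1 with 3 arrays against 3, gave 0.2 for Ldhb and Aldoart1 and 1 for Ldhc. For the 5 ratios of paired forms that test gave exact p of 0.3 to 0.8.

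Of the 75 other pathway genes 0 were called between TG3 and nonTG3 by limma and 1 had an unadjusted p under 0.05. That gene was Bpgm, with 3.89, 3.89 and 4.08 in TG3 and 3.62, 3.67 and 3.29 in nonTG3. The groups did not overlap, at a difference of 0.42 (95% interval 0.10 to 0.75; limma adjusted p = 0.923). Its nonTG3 readings lay near the medians of those arrays, 3.54 to 3.58. Pdk1, a kinase that switches off pyruvate dehydrogenase, also had groups that did not overlap, with 4.15, 4.20 and 4.36 in TG3 and 4.09, 4.04 and 3.84 in nonTG3 (difference 0.25, limma adjusted p = 0.923). These 2 of 75 compare with 4.12% of all probe sets.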

How the data were processed

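Sperm RNA of 1 C57BL/6, 3 TG3 and 3 nonTG3 pools was measured by array. The deposited values are log2 intensities that the authors made with RMA, per the submitters' processing notes, which name R 3.1.0, oligo, RMA and limma. The sources used here name no genome build and no probe set filter. An array has no depth, so the number of arrays sets the precision. The table held 33604 probe sets, of which 23493 had 1 gene symbol, 1801 several and 8310 none. The 23493 were tested with limma 3.58.1 in R 4.3.3, with 1 mean per group over 7 arrays, eBayes (4 residual and 1.65 prior degrees of freedom) and Benjamini-Hochberg adjustment over all of them, called under 0.05. Exact ties are common after RMA: 30.9% had 4 or fewer distinct values in the line. A gene was read by its probe set of highest mean. The members and lists were chosen with earlier results of these data known, and no set test was run. Named were all members, pathway genes called or with the 2 smallest p-values, somatic counterparts, and the 3 genes nearest in pattern to a called member. Bsg and Ldhd were named after their values were seen. The limma step alone was tested on simulated data, in which C57BL/6 was given the spread of the line. Alternatives covered normalization, array weights, the variance trend, dim probe sets, all probe sets, the probe set of a gene, arrays left out and the replicate block. Figures used matplotlib 3.10.9.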

Additional observations from a re-analysis of the deposited data

Results flagged for a closer look

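On the 6 arrays of the line, 21 genes (the 10 members and the 11 other pathway genes called lower) were searched for an array that stands apart by Dixon's 95% criterion, which sets the gap to the nearest array against the whole range. There were 5 such cases, and chance gives about 1 in 20 groups. Ldhc read 5.86 on TG3 replicate 3, against 6.22 to 6.40 on the other 5 arrays, and its fall against C57BL/6 was -2.44 to -2.58 whichever array was left out. Pgam2 read 7.45 on TG3 replicate 2, against 6.39 to 6.72. Eno4 read 4.14 on nonTG3 replicate 1, against 4.41 to 4.51. Pfkp read 3.30 on nonTG3 replicate 3, against 3.58 to 3.62. Slc16a7 read 4.26 on TG3 replicate 3, against 4.53 to 4.59. Exact ties after RMA, as for Eno4 and Pfkp, narrow the range of the other arrays and make this criterion easier to pass.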

How the results depend on the processing

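Counts for TG3 against nonTG3 were 0 in every alternative run, for members, pathway genes and all probe sets. For the line against C57BL/6, leaving out 1 array gave 1 to 2 members (2 without TG3 replicate 2), 5 to 6 pathway genes and 350 to 496 of all probe sets (396 without TG3 replicate 2, and 428, 350 and 438 without nonTG3 replicates 1, 2 and 3), against 1, 11 and 710. Leaving out both arrays of low mitochondrial RNA gave 0, 0 and 0 in limma, with 3213 of all probe sets at an unadjusted p under 0.05 and a smallest adjusted p of 0.0520. The other 7 alternatives kept these totals within 1.5 times, but the 40 higher calls among the 710 became 18 with arrays centred on their medians, 21 with a repeated quantile normalization, 16 at or above the median and 65 with array weights. Fewer arrays leave fewer degrees of freedom. The test on probe sets at or above the median mean left out Pfkp, Got1l1 and Mdh1b, which were then not tested. Over all alternatives the difference of Ldhc ran from -2.59 to -2.44, and that of Gk2 from -3.24 to -2.96.

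Signs turned where differences were near 0, and the cause was not tested. For the line against C57BL/6, Hk1 was 0.022 with array weights, -0.054 without both arrays of low mitochondrial RNA, and ran from -0.043 to 0.050 over the fits without 1 array. Ldhb was 0.012 with a repeated quantile normalization and ran from -0.25 to 0.031, and Eno4 from -0.067 to 0.027. For TG3 against nonTG3, Hk1 was 0.0054 with a repeated quantile normalization, 0.053 with array weights and 0.045 without both arrays of low mitochondrial RNA, and ran from -0.089 to 0.11 without 1 array. Over the same fits Ldhc ran from -0.19 to 0.078, Pgk2 from -0.041 to 0.26, Eno4 from -0.053 to 0.13 and Pdha2 from -0.22 to 0.055.

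With the replicate number as a block, TG3 against nonTG3 gave 0 calls, as without it, and 443 unadjusted p-values under 0.05 against 559. Deviations of same-numbered arrays from their group means correlated at -0.45, 0.016 and -0.40 across 23493 probe sets, so the numbers were not taken as pairs. C57BL/6 shares no replicate pairs with the line. The single C57BL/6 array limits every comparison with it.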

Other observations

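Ldhd, the mitochondrial D-lactate dehydrogenase, was singled out after its values were seen, since it had the widest range within the line among the members and pathway genes. It read 6.19 on TG3 replicate 1 and 5.49 on nonTG3 replicate 3, the arrays where mitochondrially encoded genes averaged 8.80 and 8.91. On the other 4 arrays of the line it read 7.95 to 8.35, where those genes averaged 9.98 to 11.55. The C57BL/6 array read 7.19, with mitochondrially encoded genes at 11.24. The means ± SD over 3 arrays were 7.56 ± 1.19 in carriers and 7.16 ± 1.45 in littermates, a difference of 0.40 (95% interval -1.88 to 2.67; limma adjusted p = 0.954).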
